A study of Mus musculus with 2 samples.

Results

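The synovial lining is a thin layer of fibroblasts at the inner face of the joint capsule. Its cells are known for making lubricin, the glycoprotein encoded by Prg4, and hyaluronan, which together let joint surfaces glide, and they lie over a sublining of Thy1-bearing fibroblasts. Lubricin is also made by the surface cells of articular cartilage, so Prg4 by itself does not mark the lining. The cells described here came from whole mouse long bones and were selected on 6 genes, Tmem196, Clic5, Rab37, Scg5, Kcnc2 and Tspan15: a cell was chosen when at least 3 of them had a value above 0, provided that fewer than 2 of the chondrocyte genes Acan, Col9a1 and Matn3 and fewer than 2 of the endothelial genes Cdh5, Emcn and Kdr did. The rule took 69 of 4976 cells, and 1 further cell with 3 of the 6 genes was left out for its chondrocyte genes. Because measured values chose the cells, the 12 genes of the rule are given below as a description only. The cells were also chosen with earlier results of these data known, so their other genes are likewise a description.

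Femurs and tibias of 12-week-old female mice were taken 96 h after doxorubicin (Doxo, 10 mg/kg), an anthracycline chemotherapy drug, or after vehicle (Veh). Muscle and connective tissue were stripped from the bones, which were ground and digested with collagenase; cells carrying CD45, CD71, Ter119 or, according to the labels, CD31 were then depleted before droplet single-cell RNA sequencing. There was 1 library per condition, and neither the strain nor the number of mice behind a library is given in the labels. The condition and the library therefore cannot be told apart, no test between Doxo and Veh was possible, and every interval below is an exact 95% interval that covers counting error only. Levels are given as CPM, the usual scaling of the UMIs of a gene to a fixed total over the same cells, where UMIs are the unique molecular identifiers that count RNA molecules. Each library held 2488 cells, with medians of 8693 UMIs in Veh and 7347.5 in Doxo, and 4 barcodes occurred in both libraries, none of them in a selected cell.

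The selected cells were 31 of 2488 in Veh, a share of 1.25% (0.848 to 1.76), and 38 of 2488 in Doxo, a share of 1.53% (1.08 to 2.09). The intervals of the shares overlapped. The selected cells were deeper than the rest, with medians of 16267 UMIs in Veh and 11961.5 in Doxo against 8654 and 7271.5 in the other cells. When each cell was thinned to 2000 UMIs before the rule was applied, 12 Veh and 8 Doxo cells met it. The median share of mitochondrial RNA was 2.66% in the selected Veh cells and 3.11% in the selected Doxo cells, beside 2.52% and 3.28% in the other cells.

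The 6 genes did not contribute equally. Clic5, a chloride intracellular channel family protein that links membranes to the actin cortex, was found in 30 of 31 Veh and 35 of 38 Doxo cells, with a median of 12 UMIs and 4 UMIs per cell. Tspan15, a tetraspanin that partners the protease ADAM10, was found in 30 and 37 cells, with a median of 5 UMIs in both libraries. Rab37, a small GTPase of secretory vesicles, was found in 15 and 20 cells, and the transmembrane protein gene Tmem196 in 20 and 18. Scg5, which encodes the 7B2 chaperone of the proprotein convertase PCSK2, was found in 11 and 17 cells, and the voltage-gated potassium channel gene Kcnc2 in 10 and 13. Rab37, Scg5 and Kcnc2 were thus sparse even in the cells chosen for them, and 32 cells met the rule with exactly 3 genes, 27 with 4, 8 with 5 and 2 with 6. Without Clic5 among the genes the same limit of 3 took 39 cells, and without Tspan15 it took 38, whereas leaving out any of the other genes kept between 55 and 65.

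Of all UMIs of Clic5 in the series, the selected cells held 68.2% in Veh and 78.5% in Doxo, and of all UMIs of Tmem196 they held 78.4% and 91.7%. Clic5 and Tspan15 were also found in endothelial cells, taken as cells with at least 2 of Cdh5, Emcn and Kdr. There Clic5 had a UMI in 37.4% of 99 Veh and 22.2% of 63 Doxo cells, at 114 and 68.0 CPM, which is far under the 1140 and 915 CPM of the selected cells. The margin was narrower for Tspan15, found in 50.5% and 41.3% of those cells. It stood there at 137 and 128 CPM, against 403 and 463 CPM in the selected cells. Tmem196 and Scg5 had no UMI in any of those endothelial cells. In the assembly GRCm38, Clic5 (ENSMUSG00000023959) lies on chromosome 17 from 44188584 to 44280172 on the forward strand, Rab37 (ENSMUSG00000020732) on chromosome 11 from 115091431 to 115162236 on the forward strand, and Prg4 (ENSMUSG00000006014) on chromosome 1 from 150449412 to 150466165 on the reverse strand.

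To describe how the 69 cells lay among the others, all cells were clustered with the 12 genes of the rule removed. Earlier results of the same cells led to the rule, so their grouping here is a description and no independent check. At the middle resolution 65 of the 69 cells fell into a single cluster of 99 cells, hereafter the main cluster, and they made up 65.7% of it, with 44 Veh and 55 Doxo cells in the cluster as a whole. The remaining 4 cells, 2 from each library, fell into the largest cluster. At the finer resolution 65 of them again lay in a cluster of 99 cells, while at the coarsest the 65 cells lay in a cluster of 758 cells. Among the 19 nearest neighbours of a selected cell a median of 15 were selected cells, and 55 of the 69 had selected cells as at least 50% of their neighbours.

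**Figure D1:**
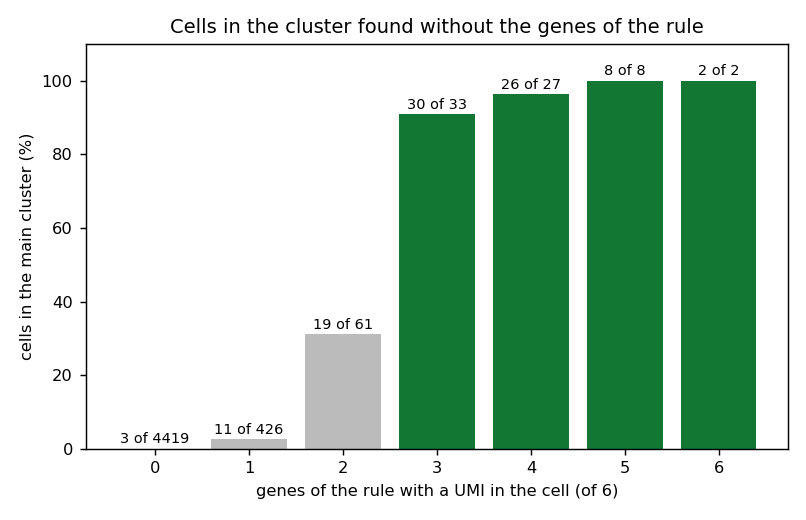
Percentage of cells in the main cluster (y axis) by the number of the 6 genes of the rule found in the cell (x axis), both libraries together, with the number of cells over each bar and green bars at 3 or more genes. The share rose from 3 of 4419 cells with none of the genes to 19 of 61 with 2 genes and 30 of 33 with 3 genes, a bar that includes the 1 cell left out for its chondrocyte genes.

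The threshold of 3 genes cut through the main cluster. The 61 cells with exactly 2 genes of the rule were mixed: 19 of them lay in the main cluster with Prg4 at 67882 CPM, and the other 42 lay elsewhere with Prg4 at 3470 CPM. Just inside the threshold, the 32 cells with 3 genes had Prg4 at 79560 CPM and Clic5 at 617 CPM, against 103423 and 1339 CPM in the 37 cells with 4 or more. The 34 cells of the main cluster that the rule did not take had a median of 7935.5 UMIs against 12988 in the 65 that it took, and they carried the same leading genes at lower levels: Prg4 at 62906 CPM, Htra4 at 1406, Col22a1 at 400 and Cd55 at 241. Comp, a tendon and cartilage matrix gene, stood at 2246 CPM in them against 69.6 CPM in the 65.

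Prg4 was the most abundant transcript of the selected cells. It was found in all 31 Veh and all 38 Doxo cells, and made up 9.15% of their UMIs in Veh and 9.497% in Doxo. Per cell, Prg4 ran from 1063 CPM to 183259 with a median of 93103 in Veh, and from 1900 CPM to 226460 with a median of 65168 in Doxo. The ranges of the libraries overlapped almost entirely. Against all other cells Prg4 was 2.42 higher on the log2 scale (2.41 to 2.43). In the other cells Prg4 had a UMI in 80.1% of Veh and 86.9% of Doxo cells, and even endothelial cells, which should lack it, showed it in 66.7% and 74.6%, at 330 and 675 CPM, so its detection alone separates nothing here.

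Prg4 was also abundant in other clusters. Cluster 7, 221 cells, stood near the selected cells, at 85525 CPM beside 93202 CPM, and cluster 1, 796 cells, stood lower, at 54497 CPM. Both of those clusters carried the joint-surface cartilage gene Cytl1, at 31252 and 25774 CPM, and the chondrocyte matrix gene Chad, at 10580 and 7853 CPM. In the selected cells Cytl1 stood at 165 CPM and Chad at 90.8 CPM. Col22a1, which the rule did not use, stood at 1.08 CPM in cluster 7 and 3.64 CPM in cluster 1, against 430 CPM in the selected cells. It was not particular to them, since it stood at 423 CPM in cluster 5 (360 cells) and 347 CPM in cluster 10 (97 cells).

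A list of 10 synovial lining genes was compared between the selected cells and all others. The list was chosen with earlier results of these data known, so the comparison is a description. Of the 9 with at least 10 UMIs in the selected cells, 8 were higher by 2 or more on the log2 scale, where 3.02% of 8117 genes were, and the list's median was 2.53 against 0.21 over all 8117 genes. Col22a1, a collagen of tissue junctions, was 4.06 higher (3.90 to 4.22), at 463 CPM in Veh and 396 in Doxo, and was found in 27 of 31 and 32 of 38 cells. Cd55, the complement decay-accelerating factor and a lining antigen, was 2.93 higher (2.79 to 3.06) and was found in 28 and 30 cells. Htra4, a secreted serine protease, was 2.79 higher (2.71 to 2.86) and was found in 30 and 37 cells. Has1, a hyaluronan synthase, was 2.53 higher (2.42 to 2.64) and was found in 24 and 31 cells. Hbegf, a growth factor of the EGF family, was 2.44 higher, the transcription factor gene Creb5 was 2.09 higher and was found in every selected cell, and the integrin gene Itgb8 was 3.72 higher. Vcam1, an adhesion molecule, went the other way, at -2.30 on the log2 scale (-2.69 to -1.96), and Crtac1 had no UMI in the selected cells.

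The hyaluronan genes divided in the same manner. Has1 had 465 and 312 UMIs in the selected Veh and Doxo cells, while Has2 and Has3 had none, where 3 UMIs of the total correspond to 2.96 CPM. Ugdh, the enzyme that makes the UDP-glucuronate used for hyaluronan, was 1.13 higher than in the other cells (1.00 to 1.26), and the hyaluronan receptor gene Cd44 was 1.83 higher (1.68 to 1.98). Among the hyaluronan-degrading genes, Hyal1 had 6 UMIs in both libraries together, split as 1 and 5, and Hyal2 had 6 and 3.

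Genes of the sublining were low or near the level of the other cells. Thy1, the sublining antigen, had 1 UMI in all 69 cells, and of the 6 sublining and universal fibroblast genes with at least 10 UMIs none was higher by 2 and 2 were lower by 2, with a median of -1.06. The nearest other cluster in average profile was cluster 3 (481 cells), which carried all 8 markers of that list and is called universal-fibroblast-like. Across 2932 genes its correlation with the selected cells was 0.788, a description over genes that are not independent replicates. Against cluster 3 the selected cells were higher by 4.56 for Pla1a and 6.48 for F13a1 on the log2 scale, and Thy1 stood at 121 CPM in Veh and 96.1 in Doxo in cluster 3. Clusters 0 and 6 followed, at correlations of 0.745 and 0.713, and the 34 unselected cells of the main cluster stood at 0.896.

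**Figure D2:**
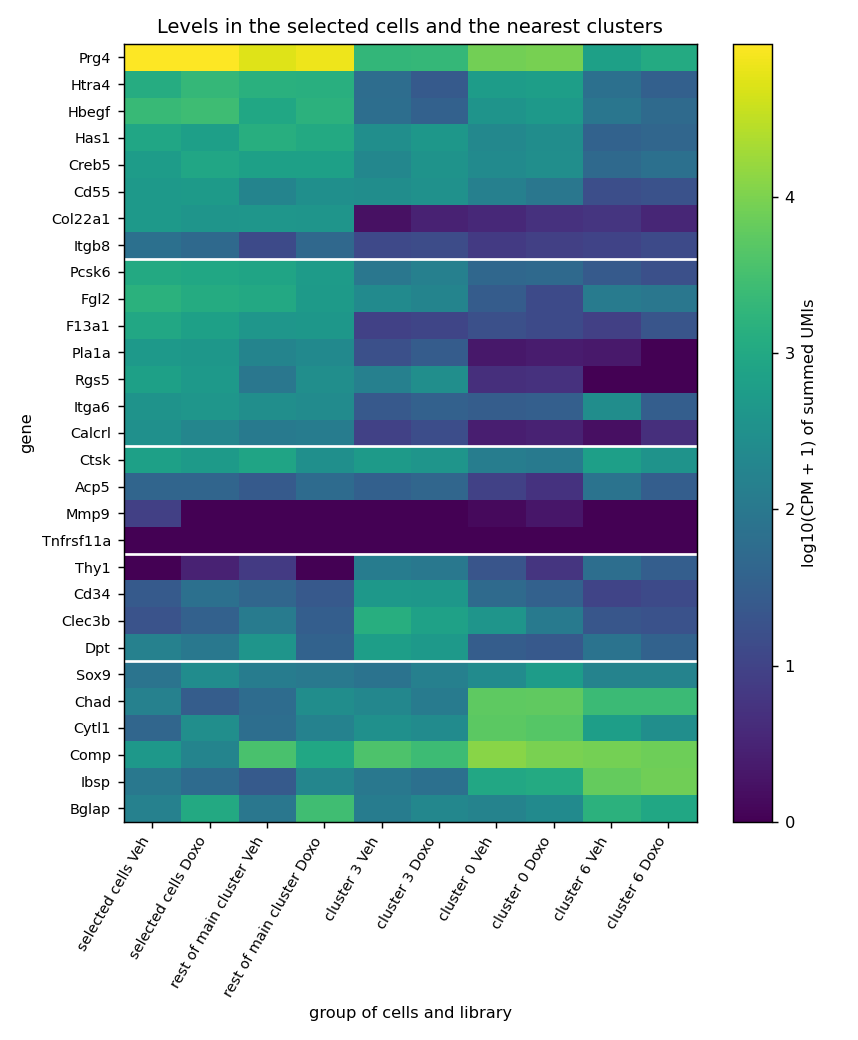
Levels of 29 genes (rows) as log10(CPM + 1) of summed UMIs in the selected cells, the 34 other cells of the main cluster and the 3 nearest clusters, with Veh and Doxo in separate columns; white lines divide lining genes, other genes high in the selected cells, osteoclast genes, sublining genes, and genes of cartilage, tendon and bone. The lining genes and the block under them were bright in the selected cells and the rest of the main cluster, while Thy1 was bright in cluster 3 and Chad, Cytl1 and Comp in cluster 0.

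Acp5 and Ctsk are best known from osteoclasts, the cells that resorb bone, where they encode tartrate-resistant acid phosphatase and cathepsin K. In the selected cells Acp5 had 21 UMIs in 13 of 31 Veh cells and 20 UMIs in 13 of 38 Doxo cells, which was 1.94 higher than in the other cells (1.42 to 2.38). Acp5 was thus a gene of 1 or a few molecules in a minority of the cells, and 1.01% of Veh and 0% of Doxo endothelial cells showed it. Ctsk was more abundant, with 347 UMIs in 28 Veh cells and 255 in 34 Doxo cells, 1.77 higher than in the other cells (1.65 to 1.89). Both missed the limit of 2 on the log2 scale. They passed it at 2.98 for Acp5 and 2.29 for Ctsk when cells were thinned to 2000 UMIs before the rule. Thinning left only 20 selected cells, so Acp5 had few UMIs there. Means of the deposited log2 values gave 2.59 and 3.22, but a difference of such means is not a ratio of CPM. The near clusters differed: Ctsk stood at 468 CPM in cluster 3, 560 in cluster 6 and 121 in cluster 0, beside 594 CPM in the selected cells. Acp5 stood at 36.6, 62.7 and 6.36 CPM in the same clusters, beside 40.5. Both genes were thus near the level of clusters 3 and 6 and higher than in cluster 0, by 2.29 for Ctsk and 2.68 for Acp5 on the log2 scale.

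The osteoclast list as a whole was mixed. Of its 4 genes with at least 10 UMIs, 3 were above 0 against the other cells and none passed 2, with a median of 1.33 beside 0.21 over all 8117 genes. Besides Acp5 and Ctsk these were the integrin gene Itgb3, at 0.89 on 9 and 10 UMIs, and Nfatc1, a transcription factor of osteoclasts and other cells, at -1.70 on 29 and 25 UMIs. Ocstamp, Dcstamp, Oscar and Tnfrsf11a, the receptor for RANKL, had no UMI, and Mmp9 had 4 UMIs, all in 1 Veh cell that is described below and that had no Acp5. The other cell types a bone digest could hold were checked in the same way. None of the 4 epithelial markers and, of 6 endothelial markers, only Egfl7 with 2 UMIs was found; 3 of those 6 markers belong to the rule. Of the pericyte list, Rgs5 was 4.55 higher than in the other cells, found in 19 of 31 and 20 of 38 cells, but Notch3, Myh11 and Mcam had no UMI. Chondrocyte genes were lower in all 4 counted, osteoblast genes in 4 of 5 and genes of Cxcl12-abundant reticular (CAR) cells in 6 of 7, each by at least 2 on the log2 scale, where 1.47% of 8117 genes were that much lower. Of the myeloid and other immune list 3 genes were counted, and Lyz2, the most abundant, had 96.8% of its 187 Veh UMIs in the cell described below. Of the 10 lining markers, 8 were high and Vcam1 and Crtac1 were not, and the cells are called synovial lining-like. Some of these markers were shared, since cluster 7 carried 4 of the 10, Prg4, Hbegf, Htra4 and Creb5. In cluster 3, Cd55 and Has1 stood at 294 and 340 CPM, beside 500 and 767 CPM in the selected cells.

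The genes with the largest fold against the other cells were named by that fold and are a description. Of 2932 genes with at least 50 UMIs in the selected cells, 108 were higher by 2 or more on the log2 scale (3.68%) and 31 were lower (1.06%). The top of the order was held by genes of modest level: Pcbd1, a cofactor-recycling enzyme of tetrahydrobiopterin, was 6.50 higher (5.81 to 7.25) on 29 and 25 UMIs, and Gpr1, a chemerin receptor, was 6.44 higher on 50 and 43. Gchfr, the regulator of the first enzyme of tetrahydrobiopterin synthesis, was 4.53 higher on 43 and 32 UMIs. Rtn1, a reticulon of the endoplasmic reticulum, was 5.53 higher, and Megf10, a receptor for the engulfment of dying cells, was 5.26 higher.

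Others of the 20 were more abundant. Fgl2, a fibrinogen-like prothrombinase, was 4.90 higher (4.80 to 4.998) with 793 UMIs in Veh and 582 in Doxo. F13a1, the coagulation factor XIII subunit that cross-links fibrin, was 4.07 higher with 493 and 330 UMIs in 29 of 31 and 33 of 38 cells. Pcsk6, a proprotein convertase, was 4.08 higher and was found in 30 of 31 and all 38 cells. Pla1a, a phosphatidylserine phospholipase, was 5.09 higher with 250 and 215 UMIs. Calcrl, the receptor shared by CGRP and adrenomedullin, was 4.73 higher with 161 and 95 UMIs. Vegfd, a lymphatic growth factor, was 4.39 higher, Sema3a, a repellent of nerve fibres, was 4.02 higher, and Aldh1a3, a retinoic acid synthesis enzyme, was 4.05 higher. The others of the top 20 were 2210407C18Rik, Tmod1, Rgs5, Col22a1, Adamtsl1, Chst2 and Cystm1, at 3.85 to 5.17.

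Fibronectin, encoded by Fn1, was named after its values were seen, as the third most abundant transcript after Prg4 and the nuclear RNA Malat1. Per cell it ran from 3061 to 46027 CPM with a median of 24636 in Veh, and from 2365 to 52198 CPM with a median of 26480 in Doxo. It was 2.93 higher than in the other cells (2.91 to 2.94), of which 14 of 2457 in Veh and 20 of 2450 in Doxo lay above the median of the selected cells. Prg4 had many more such cells, 98 in Veh and 196 in Doxo, so Fn1 set the cells apart from the rest more cleanly than Prg4.

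**Figure D3:**
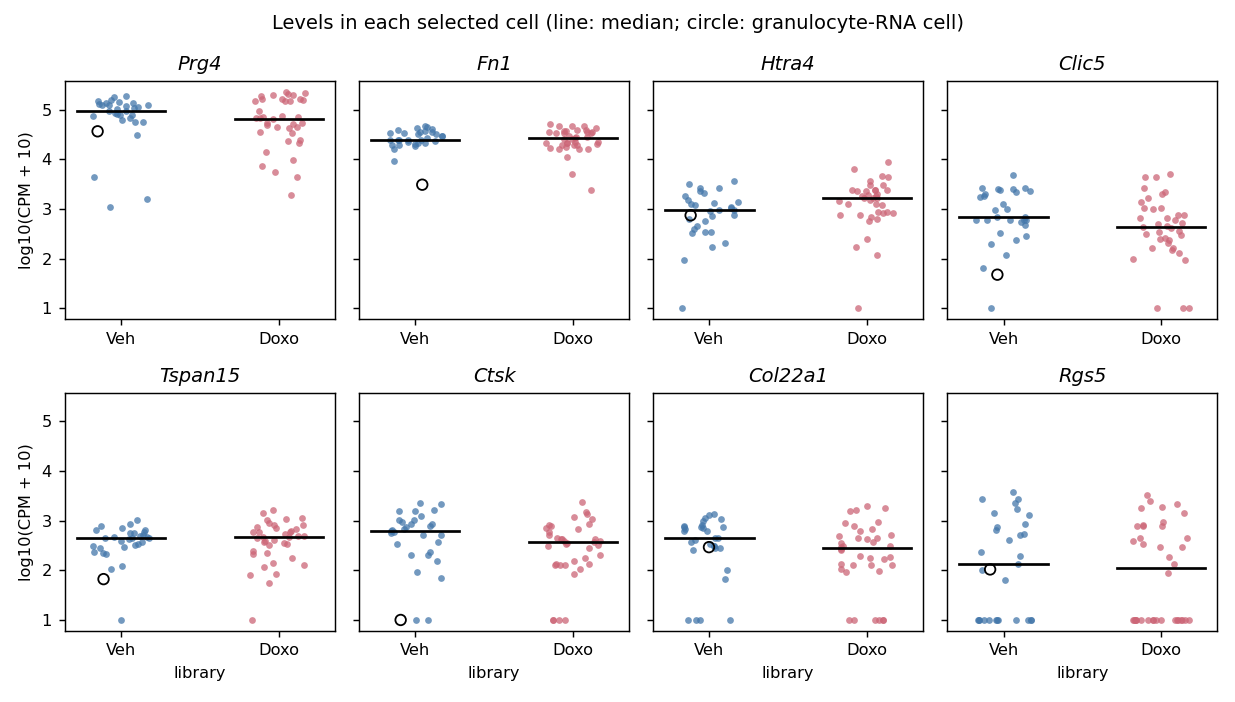
Level of 8 genes in each of the 31 Veh (blue) and 38 Doxo (red) selected cells, as log10(CPM + 10), with a black line at the median and an open circle around the Veh cell that carried granulocyte RNA. Fn1 was tight, Prg4 spread from 1063 to 226460 CPM, and Rgs5 was at 0 in 12 Veh and 18 Doxo cells.

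The lowest genes were those of cartilage and bone. Against the other cells the log2 ratio was -6.25 for Ecrg4 (-6.53 to -5.99), -5.90 for Chad, -5.75 for Cytl1, -5.44 for the bone matrix gene Ibsp and -5.21 for Mgp, an inhibitor of calcification. Of 15 collagen genes, Col22a1 was higher by over 2 and Col12a1 had a log2 ratio of -3.36, and Col4a1 and Col4a2, the basement membrane collagens, were 1.23 and 1.21 higher. The fibrillar Col1a1 and Col1a2 had ratios of -1.55 and -1.82. The integrin gene Itga6, which encodes a laminin receptor subunit, was 3.30 higher (3.13 to 3.46) and was found in 30 of 31 and 37 of 38 cells.

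Lysosomal genes lay above the other cells by a moderate amount. Of 20 on the list, 18 were above 0 on the log2 scale, none passed 2 in either direction, and the median was 0.93 beside 0.21 over all 8117 genes. Their summed level was 7556 CPM in Veh and 7570 in Doxo, against 4142 and 3758 in the other cells. Npc1, the lysosomal cholesterol transporter, was 1.64 higher (1.33 to 1.93), Ctsb, cathepsin B, 1.42 higher (1.32 to 1.52) and Hexa, a hexosaminidase subunit, 1.41 higher (1.23 to 1.58), whereas Gaa had a ratio of -0.54 (-1.02 to -0.14). Among the neighbours of the rule genes, Pcsk2, the convertase that Scg5 serves, was 3.11 higher on 13 and 13 UMIs in 9 and 6 cells, and Adam10, the partner of Tspan15, was 1.06 higher (0.73 to 1.36). The granule proteins Chga, Chgb, Scg2 and Vgf had no UMI. Rspo2, a WNT agonist, was 2.36 higher with 89 and 58 UMIs in 20 cells of each library.

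Before Doxo and Veh were compared, 1 selected Veh cell was found to stand apart. It was the deepest of the 69, with 53253 UMIs, and 13583 of them, 25.5%, came from the granulocyte genes S100a8, S100a9, Camp, Ngp and Ltf. The next highest selected cell had 2 such UMIs. It was the only selected cell with Ptprc, which encodes CD45, held 18 of the 19 Mki67 and all 20 Top2a UMIs of the Veh cells, lay outside the main cluster, and still carried 1938 Prg4 UMIs and 3 genes of the rule. Doublets were not removed, and whether this barcode held more than 1 cell was not tested. Several values between the libraries are given with and without it below.

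Most genes lay close together in Doxo and Veh. Of the 2932 genes with at least 50 UMIs, 76.9% differed by less than 0.5 on the log2 scale, 58 were higher in Doxo by 1 or more (1.98%) and 75 were lower (2.56%). The counts depended on the processing. Means of the deposited log2 values gave 148 higher and 701 lower. Cells thinned to 2000 UMIs before the rule gave 2 and 2, but only 20 cells were then selected and far fewer genes could reach 50 UMIs. Without the granulocyte-RNA cell, 51 of 2799 were higher and 47 were lower. With a limit of 10 UMIs the shares were 6.79% higher and 6.11% lower. A single cell held at least 50% of the UMIs in the higher library for 7 of the 58 higher and 33 of the 75 lower genes.

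**Figure D4:**
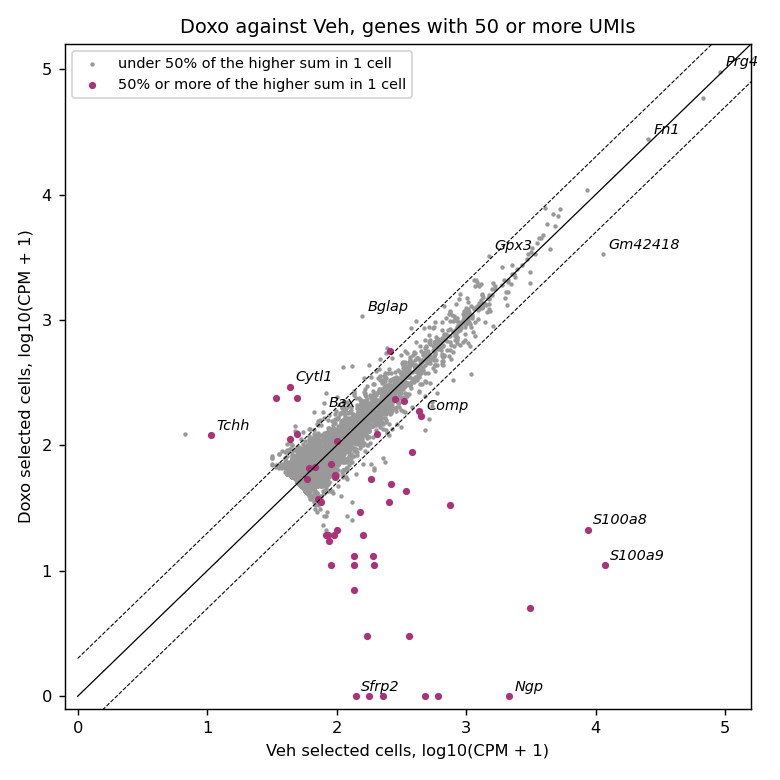
Level of each of 2932 genes in the selected Veh cells (x axis) and Doxo cells (y axis), as log10(CPM + 1) of summed UMIs, with the line of equality and dashed lines at 1 on the log2 scale. Genes with at least 50% of the higher sum in 1 cell are purple; most of the genes far under the lower line, S100a8, S100a9 and Sfrp2 among them, are of that kind.

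By summed UMIs the lining genes differed little between the libraries, whose cells were chosen by the same rule. The summed level of Prg4 was 91511 CPM in Veh and 94972 CPM in Doxo cells. This is a ratio of 0.05 on the log2 scale that became -0.04 without the granulocyte-RNA cell. Per cell the median of Prg4 was lower in Doxo, at 65168 CPM against 93103 CPM in Veh, so the sum over all cells and the median differed in direction. Of the 9 lining genes with at least 10 UMIs none differed by 1, and their median ratio was 0.12 beside 0.07 over all 8117 genes, and -0.02 without the granulocyte-RNA cell. Htra4 was the most different of the 8 enriched ones, at 1196 CPM in Veh and 2076 CPM in Doxo cells, or 0.80 on the log2 scale (0.65 to 0.94). Creb5 had 567 and 879 CPM, a ratio of 0.63 (0.41 to 0.85), and Has1 went down from 897 to 630 CPM, a ratio of -0.51 (-0.72 to -0.30). Per cell the medians of Has1 went the other way, 162 CPM in Veh and 340 in Doxo with highest cells at 5109 and 2794 CPM, so the sum and the median differed in direction. Ctsk had a ratio of -0.38 (-0.62 to -0.14) and Acp5 of -0.00 (-0.96 to 0.95).

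The genes with the largest fold in Doxo rested on few cells. Serpina3n, an acute-phase protease inhibitor, had 3 UMIs in 3 Veh cells and 60 in 9 Doxo cells, a ratio of 4.18 (2.77 to 6.71), with 40.0% of the Doxo UMIs in 1 cell. Tchh had 5 and 59 UMIs, 94.9% of the latter in 1 cell. Aspn had 17 and 118 UMIs with 75.4% in 1 Doxo cell, Cytl1 22 and 145 with 80.0%, and Lox 25 and 117 with 70.9%. The ratio of Lox was 2.27, and 3.26 without the granulocyte-RNA cell. Sox9, the chondrocyte master regulator, had 42 and 128 UMIs, with 43.0% of the Doxo UMIs in 1 cell. Furin, a proprotein convertase, had 24 and 70 UMIs in 15 and 14 cells, a ratio of 1.59 (0.92 to 2.34), with 21.4% of the Doxo UMIs in 1 cell. Slurp1 and Hhip had ratios of 1.92 and 1.73 with 34.3% and 45.1% of the Doxo UMIs in 1 cell. The direction of several of these genes turned with the processing. By means of the deposited log2 values it was -0.77 for Furin, -0.53 for Lox, -0.52 for Slurp1, -0.24 for Hhip and -0.11 for Sox9. With 2 of the 6 genes required it was -0.059 for Slurp1 and -0.064 for Aspn, with 4 required it was -0.017 for Aspn, and without cells of over 3 times the median UMIs it was -0.64 for Tchh and -0.12 for Lox.

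Bglap, osteocalcin, had 81 UMIs in 23 Veh cells and 532 in 30 Doxo cells, a ratio of 2.77 (2.44 to 3.14), with 44.5% of the Doxo UMIs in 1 cell. With cells thinned to 2000 UMIs before the rule the ratio turned to -0.20. Endothelial cells showed Bglap in 72.7% and 74.6% of cells, at 1110 and 936 CPM, beside 156 and 1075 CPM in the selected cells, so the selected cells lay under the endothelial level in Veh and near it in Doxo. Bglap2 is a near copy, and reads shared between the copies make both values uncertain.

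All the lowest genes in Doxo but 1 were the granulocyte genes of the Veh cell described above. S100a9 went from 6068 to 5 UMIs and S100a8 from 4491 to 10. Without that cell S100a9 had 5 UMIs in both libraries and S100a8 had 6 and 10. The same held for Ngp, Camp, Ltf, Chil3, Wfdc21, Ifitm6 and Lyz2, of which that cell had 96.8% or more of the Veh UMIs. The exception was Sfrp2, a WNT inhibitor, with 72 UMIs in Veh and none in Doxo, but 80.6% of the 72 came from 1 of the 3 Veh cells that had it. Measured against 3 UMIs as the floor, its log2 ratio was -4.52 or lower.

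Leaving the cell out also turned the direction of whole groups. Comp, a cartilage and tendon matrix protein, had a ratio of -1.38 with it and 2.12 without it (1.40 to 2.97), and Cilp had -0.71 and 3.39. The tendon and ligament list had a median ratio of -2.85 over 3 genes and 2.12 without the cell, and the osteoblast list one of -0.32 over 5 genes and 1.01. No direction is given for these lists.

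**Figure D5:**
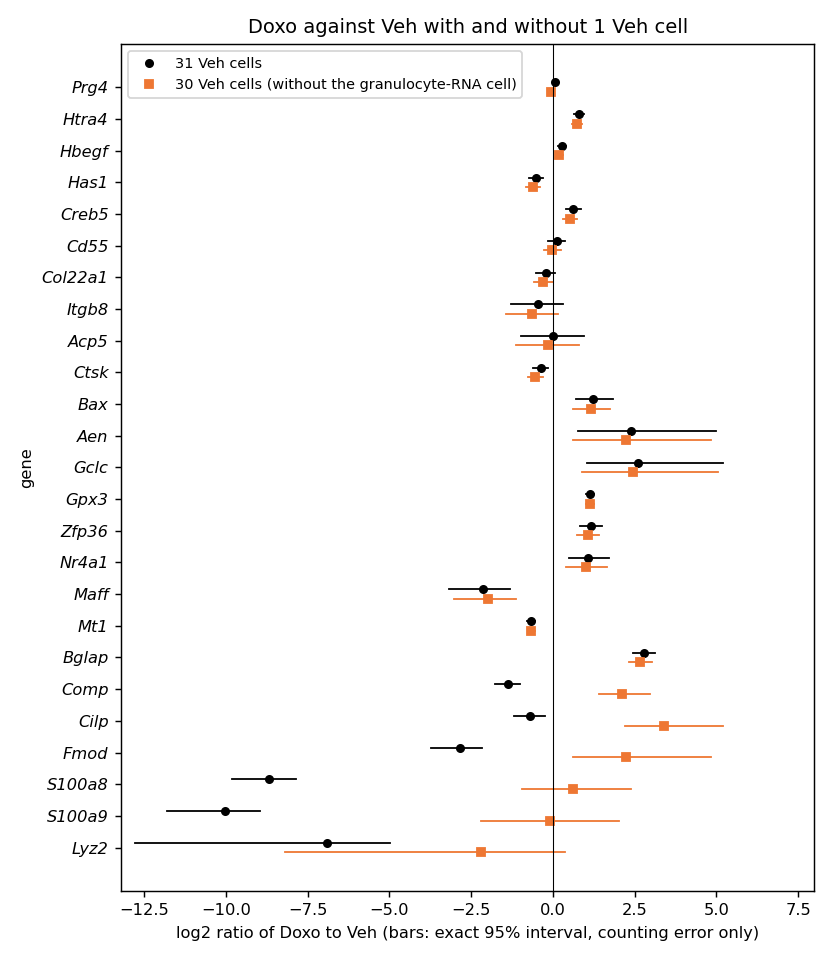
Log2 ratio of Doxo to Veh for 25 genes with its exact 95% interval (x axis, counting error only), from all 31 Veh cells (black circles) and from the 30 without the granulocyte-RNA cell (orange squares). Lining genes, Bax, Gpx3 and Maff moved little, although Prg4 and Cd55 went from just above to just under 0, whereas Comp, Cilp and Fmod went from under to above 0 and S100a8, S100a9 and Lyz2 moved toward 0 or past it.

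A group of genes, some found only in a minority of the selected cells, differed between the libraries without any 1 cell dominating the sum. Named after their values were seen, these genes differed by 1 or more with and without the granulocyte-RNA cell, while no cell held 20% of the higher sum. Of the 2932 genes with at least 50 UMIs, 23 met this as higher in Doxo and 21 as lower. Bax, the pore-forming death protein and a p53 target, had 40 UMIs in 25 of 31 Veh cells and 91 in 32 of 38 Doxo cells, 77.2 and 184 CPM, a ratio of 1.24 (0.70 to 1.83), where the other cells of the bones had 0.23. Plpp3, a lipid phosphatase that degrades lysophosphatidic acid, had 213 and 487 UMIs in 30 and 36 cells, a ratio of 1.26 (1.02 to 1.499) beside 0.08 in the other cells. Gpx3, the secreted glutathione peroxidase, had 771 and 1606 UMIs, a ratio of 1.12 (1.00 to 1.25) beside 0.48. Slc6a6, the taurine transporter, had 92 and 216 UMIs, a ratio of 1.29 (0.94 to 1.67) beside 0.72. Ackr2, a scavenging chemokine receptor, had 24 and 64 UMIs in 12 and 17 cells, a ratio of 1.46 (0.78 to 2.22) beside -0.03.

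Of the 21 lower genes 8 are given here. Nfkbia, the NF-kB inhibitor that NF-kB itself induces, had 563 UMIs in 27 Veh cells and 184 in 29 Doxo cells, 1086 and 372 CPM, a ratio of -1.54 (-1.80 to -1.30) beside -0.36 in the other cells. Nfkb1, which encodes the p50 precursor, had 101 and 32 UMIs, a ratio of -1.58 (-2.21 to -1.01) beside -0.63. Smad7 and Skil, feedback inhibitors of TGF-beta signalling, had ratios of -1.09 and -1.36 beside -0.44 and -0.07. Maff, a small Maf transcription factor, had 62 and 13 UMIs in 13 and 8 cells, a ratio of -2.14 (-3.17 to -1.31) beside -0.36. Dab2, an endocytic adaptor, had 100 and 31 UMIs, a ratio of -1.61 (-2.25 to -1.03) beside -0.08, and Fap, fibroblast activation protein, had 282 and 110, a ratio of -1.29 (-1.62 to -0.97) beside -0.38. Gm42418, a gene model that overlaps ribosomal RNA sequence, was the most abundant of them at 11429 and 3355 CPM, but the other cells had nearly the same ratio, -1.48 beside -1.77. For these 2 groups of genes the median ratio in the other cells was 0.17 for the 23 and -0.36 for the 21. The genes were picked for their fold in the selected cells, so these medians are a description only.

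The response lists gave small medians, and their counts stand beside 6.79% higher and 6.11% lower over all 8117 genes with at least 10 UMIs. Of 20 p53 targets with at least 10 UMIs, 13 were above 0 and 2 were higher by 1, Bax and Aen, where Aen, an apoptosis-enhancing nuclease, had 3 UMIs in 3 Veh cells and 17 in 13 Doxo cells, a ratio of 2.39 (0.78 to 4.98). Gdf15, a stress cytokine, was the 1 target lower by 1, at -1.13. Their median was 0.30, beside 0.07 over all genes, and it lay between -0.06 and 0.07 with 2 of the 6 genes required, with equal weight per cell, by means of the deposited log2 values and for the whole main cluster. Cdkn1a, which encodes p21 and is the most abundant of the list, had 430 and 404 CPM, a ratio of -0.09 (-0.37 to 0.19). Of 16 antioxidant and metal genes, Gpx3 and Gclc were higher by 1, the latter, a subunit of glutamate-cysteine ligase, with 3 UMIs in 3 Veh cells and 20 in 13 Doxo cells, and the median was 0.26. Fth1, the ferritin heavy chain, had 4697 and 6978 CPM, a ratio of 0.57 (0.50 to 0.65), whereas the metallothionein gene Mt1 had 3113 and 1955 CPM, a ratio of -0.67 (-0.79 to -0.56). Per cell the medians of Mt1 went the other way, 853 CPM in Veh and 1037 in Doxo, so its sum and median differed in direction. Of 19 immediate early genes, Zfp36 and Nr4a1 were higher by 1 and Maff was lower, with a median of 0.21, or 0.07 without the granulocyte-RNA cell, beside 0.54 in the other cells.

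The 18 counted interferon response genes had a median of -0.02 in the selected cells and 0.27 in the other cells. Most were sparse: Isg15 had 7 and 2 UMIs, Ifit1 0 and 5, and Irf7 1 and 0, while the abundant H2-D1 had 535 and 529. The lysosomal list had a median of -0.12, in which Hexa had 380 and 200.0 CPM, a ratio of -0.92 (-1.29 to -0.57), and Ctsl 833 and 1333 CPM, a ratio of 0.68 (0.50 to 0.86). Of the 15 counted secretory phenotype genes 2 were higher and 4 lower, where 6.79% and 6.11% of all 8117 genes were, and Ccl2 and Ccl7, the 2 higher ones, had all of their Doxo UMIs in 1 cell. Il6 had 17 UMIs in 3 Veh cells and 3 in 1 Doxo cell. Cdkn2a, the gene of p16, had 8 UMIs in 5 Veh cells and 2 in 2 Doxo cells, a ratio of -1.70 (-5.21 to 0.39), and no difference in it was detectable at this depth. In the unselected cells of the main cluster Cdkn2a stood at 6.17 CPM in 15 Veh cells and 88.2 CPM in 19 Doxo cells. These levels rest on few UMIs in few cells and have no interval, so no direction is given for Cdkn2a. Tnfsf11, which encodes RANKL, had no UMI in the selected cells of either library.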

How the data were processed

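Droplet (10x Genomics 3' v3) libraries of bone-resident cells, 1 Veh and 1 Doxo, were aligned by the authors with Cell Ranger to GRCm38 (mm10); Partek is also named in the submitters' processing notes. The deposited log2 values were doubly scaled to a fixed total per cell. The scaling was inverted in each cell, which gave whole UMIs (within 0.1) for 99.9% of nonzero values up to 50 UMIs; 27 symbols with other values were rounded. Libraries held 24859695 and 20792012 UMIs. The cells and gene lists were chosen with earlier results of these data known. UMIs were summed over cells, 0.5 was added to each sum, and log2 ratios were given with exact conditional binomial intervals; genes needed 50 UMIs in the selected cells, or 10 in lists. Named were the 20 highest and 5 lowest genes, and the 10 highest and 10 lowest in Doxo. Cells were clustered in Seurat 5.3.0 on 2000 variable genes and 35 components at resolutions of 0.1, 0.4 and 1. No doublets were removed. The steps were checked on simulated data. Gene positions came from GENCODE vM21. Alternatives are listed in the closing section.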

Additional observations from a re-analysis of the deposited data

Results flagged for a closer look

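The median log2 ratio of the p53 targets differed in sign between the selected cells and the rest of the libraries. With Doxo set against Veh, it was 0.30 over the 20 targets counted in the selected cells and -0.15 over the same genes in the other cells, beside 0.07 over all genes in the selected cells. Of the 20 targets 13 were above 0, 2 were higher by 1 and 1 was lower. The difference was not tested, since each condition had 1 library. The value in the selected cells ran from -0.06, with 2 of the 6 genes required, to 0.45, without the deepest cells, over the alternatives that gave a value.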

How the results depend on the processing

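No paired analysis was possible because each condition had 1 library, and leaving out a replicate was not possible for the same reason. The cause of the changes below was not tested except where the setting takes fewer cells or genes. With 2 of the 6 genes required, the shares were 2.13% and 2.25%, 121 genes were lower in Doxo, Prg4 was 2.06 and Ctsk 1.48 higher than in the other cells, and Slurp1 and Aspn turned to -0.059 and -0.064. With 4 required, the shares were 0.723% and 0.764%, Prg4 was 2.52, Aspn -0.017 and S100a8 1.01. Thinned to 2000 UMIs, the shares were 0.505% and 0.333%, 9 genes were higher than in the other cells, 2 were higher and 2 lower in Doxo, Prg4 was 2.65, Acp5 2.98, Ctsk 2.29 and Bglap -0.20. Without cells of over 3 times the median UMIs, 45 genes were lower in Doxo, Prg4 was 2.25, Lox -0.12, Tchh -0.64, S100a9 0.0093 and S100a8 0.22. Prg4 was 2.40 with no cell left out by the rule, 2.59 with equal weight per cell, and 2.35 (Ctsk 1.52) without chondrocyte and endothelial cells in the comparison. A limit of 10 UMIs gave 245 genes higher than in the other cells and 551 higher and 496 lower in Doxo, and a limit of 1 gave 858, 2005 and 2275. Means of the deposited log2 values gave 804, 148 and 701, with Prg4 at 1.69, Acp5 2.59, Ctsk 3.22, Sox9 -0.11, Hhip -0.24, Slurp1 -0.52, Lox -0.53, Furin -0.77 and S100a8 0.57. Chosen after the data were seen, leaving out the granulocyte-RNA cell gave 47 lower genes, Prg4 2.47 and S100a8 0.60; leaving out the cells outside the main cluster gave 40, Prg4 2.51, S100a9 0.21 and S100a8 0.62; and taking the whole main cluster gave shares of 1.77% and 2.21%, Prg4 2.39, S100a9 0.55 and S100a8 0.54. Of the values for single genes, 199 of those against other cells and 110 of those between libraries moved by less than their spread, as did 379 list medians, while 101, 44 and 31 moved by more and the 20 values between libraries printed above changed sign.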
